A study of Mus musculus with 8 samples.

Results

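T and natural killer cell transcripts were examined in the livers of newborn glycerol kinase knockout mice through 10 genes: the granule protein genes Gzma, Gzmb, Prf1 and Nkg7, the natural killer receptor genes Klrk1 and Klrb1c, the T cell receptor chain genes Cd3e and Cd3g, the chemokine gene Ccl5 and the cytokine receptor gene Il2rb. The probe sets annotated to 1 of these symbols were taken, which gave 11 probe sets for 9 genes, out of 18193 genes named on the array. Klrb1c had no probe set of its own. Of the 11 probe sets, 6, for 6 genes, had signals of 200 or more on 4 or more of the 8 arrays and so entered the test across the array. The other 5 stayed below that minimum, and Prf1, Cd3e and Cd3g had no probe set above it.

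Livers were compared from 4 glycerol kinase knockout pups and from 4 of their age-matched littermates that were wild type. Every pup was an inbred C57BL/6J mouse labelled male, taken on day of life 3, and each liver's RNA was read on a separate array (Affymetrix Mouse 430 2.0). Glycerol kinase phosphorylates glycerol to glycerol 3-phosphate, and its gene lies on the X chromosome. The labels do not describe how the allele was made, and they name neither the litters nor the pups' blood counts. The comparison asks how the livers differ on a day when, per the design text, the knockouts are already ill.

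The deposited values are linear signal intensities scaled to a target of 500, and the trimmed mean was 500.0 on every array. The transcript of the disrupted gene, for which the annotation pairs no probe set, was not analysed here and so did not check the labels. The array labelled wild type 4 went against its label of male: Xist, the RNA of the inactive X chromosome, had a signal of 10506.3 there and 196.4 to 396.3 on the others, and the Y-linked gene Eif2s3y had 1.3 there and 685.1 to 1163.6 on the others. The main results are therefore also given without it. A spiked-in control (BioB) parted the arrays into 2 control sets, each with 2 arrays of each group: replicates 1 and 2 lay between 141.4 and 167.3, and replicates 3 and 4 between 257.6 and 338.3. The control probe sets for pyruvate carboxylase, whose 3′ to 5′ signal ratio rises as transcripts become incomplete, gave ratios of 7.04, 4.93, 2.07 and 2.07 on the knockout arrays, against 3.46, 2.63, 2.33 and 2.12 on the wild-type arrays. Hepatocyte markers, 9 of which were tested, summed to 179430 to 244680 in the knockout livers and 157900 to 199850 in the wild-type livers.

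Natural killer cells and cytotoxic T cells kill infected or altered cells by releasing granules. Perforin, the product of Prf1, opens the target's membrane, and granzymes, serine proteases such as the products of Gzma and Gzmb, pass through and start cell death. Natural killer cells recognise targets through germline-encoded receptors such as NKG2D, the product of Klrk1, while T cells recognise peptides through the T cell receptor, whose signal is carried by the CD3 chains. The beta chain encoded by Il2rb serves the receptors for interleukin 2 and interleukin 15, and natural killer cells need interleukin 15 to survive. The adult mouse liver is rich in natural killer cells and related innate lymphoid cells, and the newborn liver still makes blood cells.

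Promoter sequences from RefSeq (mouse build GRCm38.p6) were found for 8 of the 10 genes, each a window of 300 bases that runs from 250 bases before the annotated start to 50 after it. RUNX factors, transcription factors of T and natural killer cells, recognise the letters TGTGGT, and these were present on one or the other strand in the windows of Gzma, Gzmb, Nkg7, Prf1, Klrk1 and Klrb1c, against 16.8% of all 32851 windows. The windows of the 2 granzyme genes, which had the lowest knockout minus wild-type differences of the 9 genes with a probe set, are given whole, for Gzma at chr13:113100932-113101231 and for Gzmb at chr14:56262285-56262584, both on the minus strand. The capitals mark TGTGGT or its reverse complement.
Gzma: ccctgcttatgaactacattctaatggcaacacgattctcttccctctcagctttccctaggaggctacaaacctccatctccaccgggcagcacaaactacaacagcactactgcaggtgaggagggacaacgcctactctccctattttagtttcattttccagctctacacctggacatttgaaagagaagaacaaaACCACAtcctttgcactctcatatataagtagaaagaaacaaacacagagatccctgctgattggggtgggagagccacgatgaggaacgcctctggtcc
Gzmb: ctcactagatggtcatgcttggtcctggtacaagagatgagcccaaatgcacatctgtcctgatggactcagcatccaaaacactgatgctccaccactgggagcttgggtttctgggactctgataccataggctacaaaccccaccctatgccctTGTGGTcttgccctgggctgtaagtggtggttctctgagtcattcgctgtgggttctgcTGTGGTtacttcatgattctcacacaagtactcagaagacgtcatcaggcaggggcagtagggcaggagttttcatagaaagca
The match lay 50 bases before the annotated start of Gzma, and 93 and 34 bases before that of Gzmb. For the other genes with signal data, 40 bases around the match are shown, so that the neighbouring letters can be compared, for Nkg7 at chr7:43437038-43437077 and Prf1 at chr10:61297689-61297728 on the plus strand, and for Klrk1 at chr6:129623971-129624010 on the minus strand.
Nkg7: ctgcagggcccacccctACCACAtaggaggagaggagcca
Prf1: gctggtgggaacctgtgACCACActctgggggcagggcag
Klrk1: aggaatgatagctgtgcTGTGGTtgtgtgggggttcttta
These matches lay 83, 130 and 129 bases before the starts used for the windows of Nkg7, Prf1 and Klrk1. For Prf1 and Klrk1 that start lies inside the annotated gene (chr10:61297751-61304684 and chr6:129610323-129623903), so the gene's outermost start is nearer to the match. The T-box letters AGGTGTNA were in the window of Nkg7, against 3.0% of all windows, and the STAT letters TTCNNNGAA were in those of Nkg7 and Gzmb, against 8.3%. The AP-1 letters TGANTCA were in the windows of Klrk1 and Gzmb, against 7.8%, and the ETS letters CAGGAAG in those of Nkg7, Cd3e and Prf1, against 13.3%. The interferon response letters (GAAA, any 2 bases, GAAA) were in the window of Gzma, against 3.4%. Both strands were searched for each motif, no 2 of these motifs contain one another, and a match describes the letters alone.

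The granule proteins come first. Gzma encodes granzyme A, a protease that cuts after basic residues. Its probe set (1417898_a_at) had signals of 559.1, 1191.8, 729.4 and 740.1 in the knockout livers, against 1540.4, 1664.7, 1413.0 and 2535.6 in the wild-type livers. All 4 knockout arrays lay below all 4 wild-type arrays, and the wild-type mean was 2.22 times the knockout mean (805 ± 271 in the knockout and 1788 ± 509 in the wild type, SD, n = 4 each). On the log2(signal + 16) scale used for all tests here, the knockout minus wild-type difference was -1.15 ± 0.25 (SE; 95% interval -1.70 to -0.61). Adjusted over all 20395 tested probe sets, the limma p was 0.0826, so Gzma did not pass the threshold of 0.05. Its unadjusted p of 0.000731 placed it 179th of the 20395, and 89 tested probe sets, its own included, had a difference at least as far below 0. In a bulk liver sample, fewer cells of a type and less RNA per cell cannot be told apart.

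Gzmb encodes granzyme B, which cuts after aspartate and activates caspases. Its probe set (1419060_at) had signals of 207.7, 303.7, 176.5 and 186.4 in the knockout livers, against 262.6, 389.6, 352.6 and 434.1 in the wild-type livers. The groups overlapped, since knockout 2 was above wild type 1. The signal minimum was reached on 4 wild-type arrays and 2 knockout arrays. Gzmb thus entered the test mainly through the group in which it was higher. The means were 219 ± 58.2 in the knockout and 359.7 ± 72.8 in the wild type (SD, n = 4 each), and the difference was -0.69 ± 0.22 (log2, SE; 95% interval -1.18 to -0.20; limma adjusted p = 0.198, unadjusted 0.0105).

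Nkg7 encodes a membrane protein of the cytotoxic granule. Its probe set (1450753_at) had signals of 254.9, 379.7, 273.5 and 348.9 in the knockout livers, against 315.9, 512.5, 317.5 and 344.6 in the wild-type livers. Knockout 2 and knockout 4 lay above 3 of the 4 wild-type arrays, and the difference of -0.22 ± 0.20 (log2, SE; 95% interval -0.67 to 0.23) did not pass the test (limma adjusted p = 0.660).

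Prf1 was read by 2 probe sets, both below the signal minimum. The first (1451862_a_at) had 114.6, 163.1, 149.7 and 94.4 in the knockout livers, against 212.3, 123.4, 83.6 and 154.7 in the wild-type livers. The second (1450335_at) had 142.4, 144.7, 120.4 and 121.0 in the knockout livers, against 104.8, 156.2, 145.4 and 104.1 in the wild-type livers. On both, the knockout arrays lay within the range of the wild-type arrays, and the differences were -0.08 ± 0.30 and 0.06 ± 0.24 (log2, SE; limma adjusted p = 0.969 and 0.972 in a fit with no minimum). The 95% intervals ran from -0.76 to 0.59 and from -0.46 to 0.58.

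**Figure D1:**
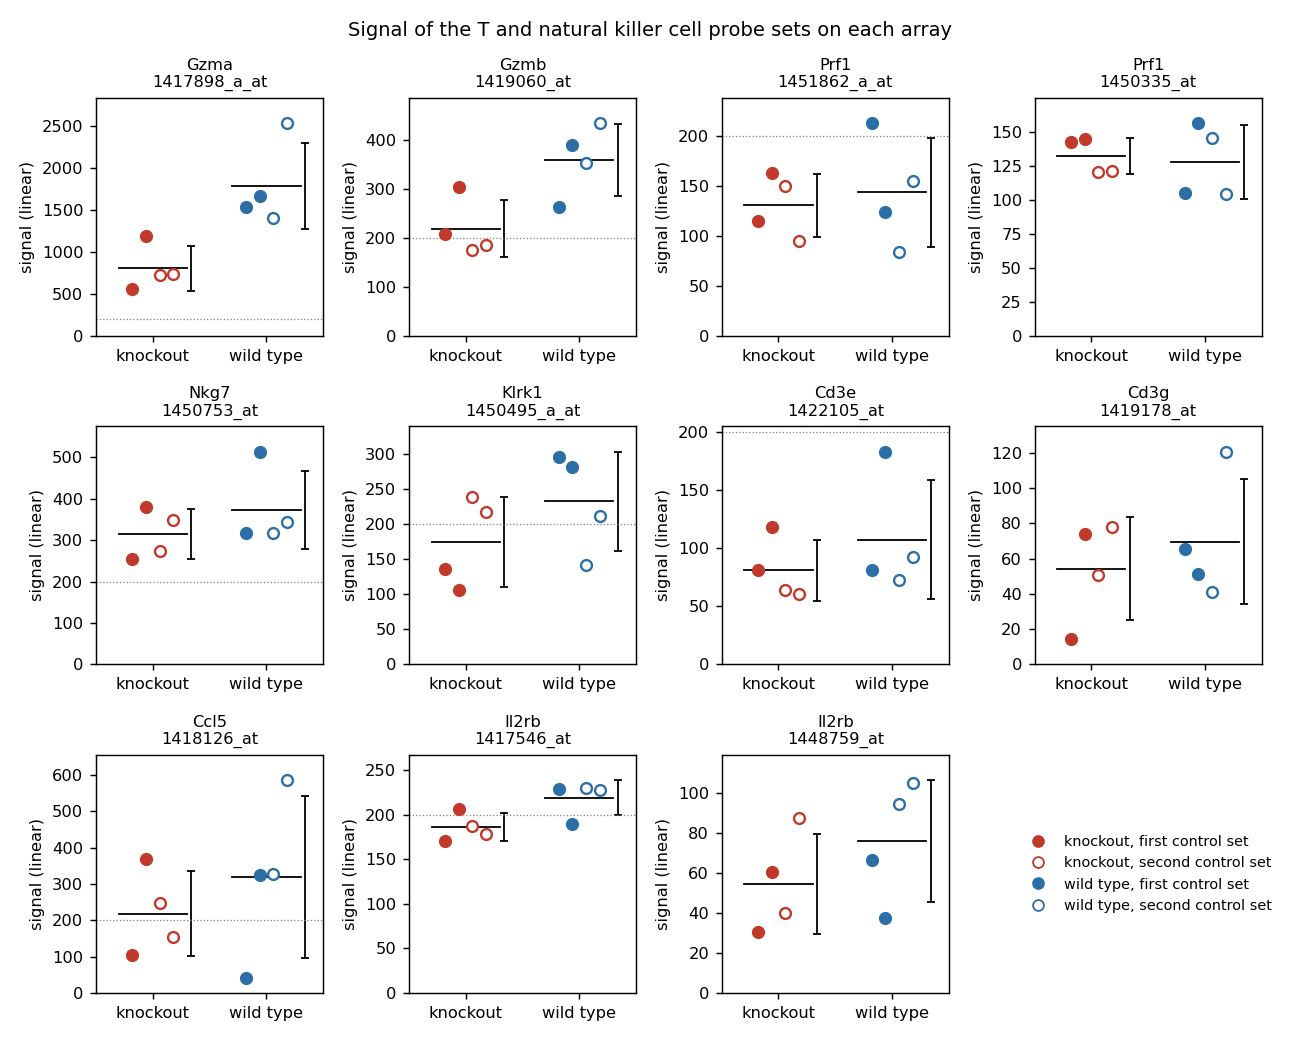
Signal (linear, scaled to a target of 500) of the 11 probe sets on each array, knockout left and wild type right; filled points are replicates 1 and 2 and open points replicates 3 and 4 of each group (the 2 control sets), lines are means, bars are SD (n = 4) and the dotted line is a signal of 200. Gzma is the one panel where the groups do not overlap, and both Prf1 panels, Cd3e, Cd3g and the second Il2rb panel lie almost wholly below 200.

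Among the receptors, Klrk1, the gene of the activating receptor NKG2D, split by control set. Its probe set (1450495_a_at) had signals of 136.3, 105.6, 238.0 and 217.2 in the knockout livers, against 294.7, 280.4, 141.8 and 211.1 in the wild-type livers. Knockouts 1 and 2 were below wild types 1 and 2, while knockouts 3 and 4 were above wild types 3 and 4. Over all arrays the difference was -0.40 ± 0.31 (log2, SE; 95% interval -1.09 to 0.30; limma adjusted p = 0.606). Within the first control set it was -1.16 ± 0.34 and within the second 0.36 ± 0.26, and the test of the change between the sets gave an unadjusted p of 0.00431 and a limma adjusted p of 0.484. Of all tested probe sets, 9.92% changed between the sets at an unadjusted p under 0.05 and 0.00981% at an adjusted p under 0.05.

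Klrb1c encodes the NK1.1 antigen used to identify natural killer cells in C57BL/6 mice. The 1 probe set that names it (1449570_at) is annotated to Klrb1b as well, an inhibitory receptor of the same family, and so belongs to neither gene alone. Its signals were 14.2, 23.7, 46.1 and 18.8 in the knockout livers, against 21.6, 11.8, 32.8 and 22.0 in the wild-type livers. They were low and overlapped (difference 0.10 ± 0.29, log2, SE; limma adjusted p = 0.959 with no minimum).

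The CD3 epsilon and gamma chains, which mark all T cells, were dim. Cd3e (1422105_at) had signals of 81.4, 117.9, 64.3 and 60.6 in the knockout livers, against 81.0, 182.7, 72.5 and 92.6 in the wild-type livers. Cd3g (1419178_at) had 14.4, 73.9, 50.7 and 78.1 in the knockout livers, against 65.5, 51.0, 41.2 and 120.4 in the wild-type livers. Neither reached 200 on any array and the groups overlapped, with differences of -0.30 ± 0.33 for Cd3e and -0.33 ± 0.42 for Cd3g (log2, SE; limma adjusted p = 0.864 and 0.891 with no minimum). The T cell side of the gene set thus had no probe set with enough signal to be tested, and the table carries no detection calls that would say whether these values lie above background.

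Ccl5 encodes a chemokine that activated T and natural killer cells release, and it also comes from other cells. Its probe set (1418126_at) had signals of 103.0, 369.4, 247.7 and 152.7 in the knockout livers, against 41.1, 324.5, 327.3 and 584.7 in the wild-type livers. Wild type 1 had the lowest signal of all arrays and wild type 4 the highest, so the wild-type range enclosed the knockout range (difference -0.24 ± 0.64, log2, SE; 95% interval -1.67 to 1.18; limma adjusted p = 0.900). The difference was 0.62 ± 0.84 within the first control set and -1.11 ± 0.33 within the second.

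Il2rb was read by a probe set (1417546_at) with signals of 170.8, 206.9, 187.9 and 178.7 in the knockout livers, against 228.6, 189.4, 230.0 and 227.6 in the wild-type livers. Wild types 1, 3 and 4 lay above every knockout array, and wild type 2 lay within the knockout range. It reached the minimum on 3 wild-type arrays and 1 knockout array, so it entered the test mainly through the group in which it was higher, and its difference was -0.22 ± 0.19 (log2, SE; 95% interval -0.63 to 0.20; limma adjusted p = 0.646). A second probe set (1448759_at) lay below the minimum, with 30.7, 60.3, 40.0 and 87.5 in the knockout livers, against 66.6, 37.5, 94.8 and 105.1 in the wild-type livers. It overlapped as well (difference -0.38 ± 0.36, log2, SE; limma adjusted p = 0.834 with no minimum).

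Of the 6 tested probe sets, 0 were called higher and 0 lower at a limma adjusted p under 0.05. Across the array, 0.147% of the 20395 tested probe sets were called higher and 0.152% lower. At an unadjusted p under 0.05, 2 of the 6 were lower (Gzma and Gzmb), where 7.32% of all tested probe sets were, and 0 were higher, where 7.12% were. Of these 2, Gzmb had reached the minimum on 4 wild-type arrays and 2 knockout arrays. Gzma was the 1 of the 6 whose groups did not overlap with the knockout lower, and 4.85% of all tested probe sets did so, while 4.47% had the knockout higher without overlap. Of the 5 dim probe sets, 0 passed the adjusted or the unadjusted threshold in the limma fit with no minimum. Over the 45037 probe sets of that fit, 0.0289% were lower and 0.0178% higher at an adjusted p under 0.05, and 4.94% were lower and 4.15% higher at an unadjusted p under 0.05. Groups without overlap were found for 0 of the 5 dim probe sets, where 3.24% of the 45037 were lower and 2.56% higher without overlap. Over all 11 probe sets, dim ones included, 10 differences were below 0 with a median of -0.30, against 56.2% and a median of -0.05 over all 45037. Prf1 and Il2rb count with 2 probe sets each, and the genes were chosen with earlier results of these data known. The count thus describes the gene set and does not test it.

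**Figure D2:**
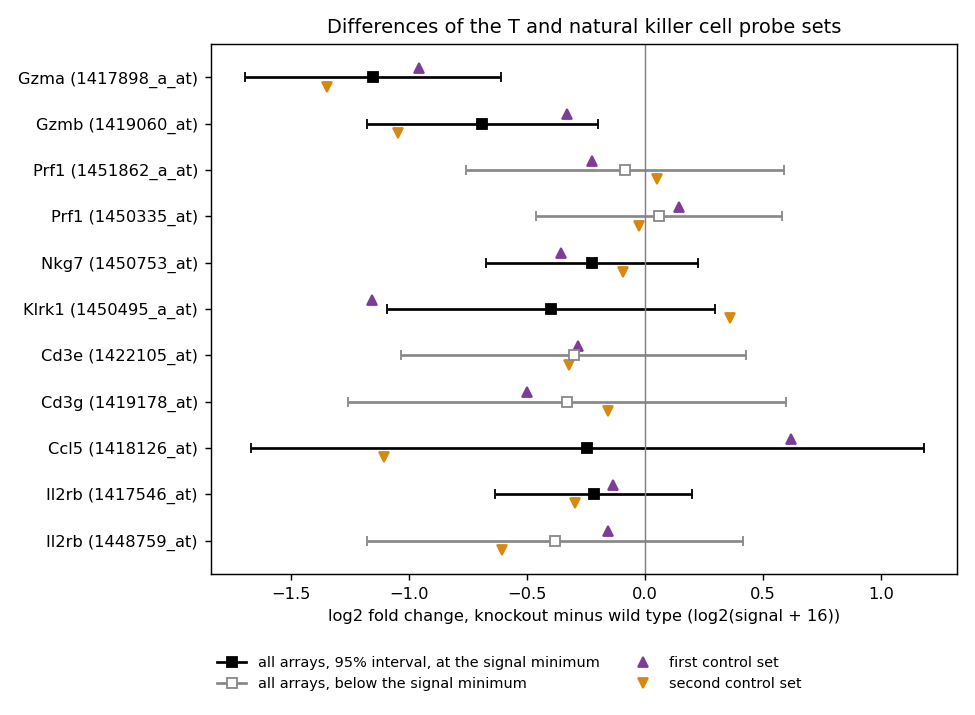
Difference between knockout and wild type for each probe set, as log2(signal + 16), knockout minus wild type; squares are all 8 arrays with 95% intervals (open and grey where the probe set was below the signal minimum), and triangles are the 2 control sets on their own. The intervals of Gzma and Gzmb lie below 0, and the other 9 include 0.

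The granzyme differences were of the same sign in both control sets, and their size differed. Gzma was at -0.96 ± 0.35 within the first set and -1.35 ± 0.26 within the second, and Gzmb at -0.33 ± 0.32 and -1.05 ± 0.20 (log2, SE). With the control set as a block, the limma adjusted p was 0.0637 for Gzma and 0.149 for Gzmb. Without the array labelled wild type 4, which had the highest signal of both, Gzma was at -0.97 ± 0.24 (limma adjusted p = 0.157) and Gzmb at -0.59 ± 0.24 (0.354). With the pyruvate carboxylase ratio as a covariate, the differences were -1.11 and -0.73.

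The 2 granzymes also varied together over the arrays. As a description over 8 arrays that share their scaling and their control sets, the Pearson r of Gzma with Gzmb was 0.90, with Il2rb (1417546_at) 0.81, with Nkg7 0.56, with Ccl5 0.43 and with Klrk1 0.27. Part of these values is the difference between the groups itself. Gzmb with Il2rb gave 0.65, and Klrk1 with Ccl5 gave -0.29. The probe sets outside the gene set that most resembled the mean of the 6 tested ones over the 8 arrays were those of Itga6, an integrin chain (r = 0.978), Nfe2l2, an oxidative stress transcription factor (0.978), and Syncrip, an RNA-binding protein (0.975). They were followed by Gmppa (0.954), Pitpnm2 (0.952) and Preb (0.952). All 6 had differences below 0, from -0.84 for Nfe2l2 to -0.14 for Pitpnm2, and none was called (limma adjusted p 0.198 to 0.658).

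Related genes were read from 8 lists, each with 1 probe set per gene. In T cell receptor signalling, 4 of 24 genes were tested, 0 were called, and 12 stayed below 200 on every array. The tested 4 had a median difference of -0.08, against -0.03 over all tested probe sets, and the adaptor Lat had the smallest p. Lat had signals of 44.6, 84.6, 252.2 and 446.0 in the knockout livers, against 175.1, 416.5, 488.8 and 555.7 in the wild-type livers (difference -1.25 ± 0.59, log2, SE; limma adjusted p = 0.365). Knockouts 1 and 2, the arrays with the highest pyruvate carboxylase ratios, were the lowest for Lat, and the part of transcript integrity in that was not tested. The kinase gene Zap70 was at 0.25 and the signalling regulator Ubash3a at -0.19. Within the 2 control sets the list's median was -0.25 in the first and -0.15 in the second.

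Of 20 other natural killer receptors and adaptors, 4 were tested and 0 called. All 4 had differences below 0 (median -0.21), where 54.2% of all tested probe sets did. Untested genes of this list lay on both sides of 0, such as Klrb1f at 0.35 and Ncr1 at -0.32. Cd160, a receptor of natural killer and T cells, was at -0.43 ± 0.21 (limma adjusted p = 0.392), the signalling adaptor Tyrobp at -0.26 and the inhibitory receptor Klrg1 at -0.15. Over the 8 lists, 63 genes with a probe set missed the minimum, and the groups of 2 of these did not overlap, 1 lower and 1 higher in the knockout. Both were chosen for mention after their values were seen. Klrd1, which encodes the CD94 chain that pairs with NKG2 receptors, had signals of 51.6, 153.8, 59.5 and 117.9 in the knockout livers, against 266.7, 252.2, 164.9 and 250.6 in the wild-type livers. The knockout arrays were all lower, and the difference was -1.24 ± 0.33 (log2, SE; limma adjusted p = 0.243 in the fit with no minimum). S1pr5, which encodes a receptor that lets natural killer cells leave tissues, had signals of 38.4, 10, 12.9 and 36.7 in the knockout livers, against 7.0, 4.4, 6.4 and 4.8 in the wild-type livers. The knockout arrays were all higher, at signals near the bottom of the scale, and the difference was 0.83 ± 0.27 (log2, SE; limma adjusted p = 0.360 in the fit with no minimum). In that fit 3.24% of probe sets were lower and 2.56% higher without overlap.

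Among 18 other cytotoxic effectors, 7 were tested and 0 called, with a median of 0.01. The granzyme B inhibitor Serpinb9 was at -0.42 ± 0.21 (limma adjusted p = 0.408), the related inhibitor Serpinb6b at -0.23 and Srgn, the core protein that packs granule proteases, at -0.09. Of 17 lineage transcription factors, 7 were tested and 0 called (median 0.22), with Zbtb16, the factor of innate-like T cells, at 0.88 ± 0.33 (limma adjusted p = 0.265), Tox at 0.47 and Nfil3, which natural killer development needs, at 0.22. Of 15 genes of interleukin 2 and 15 signalling, 10 were tested and 0 called (median -0.24). There the feedback inhibitor Socs3 was at 0.78 ± 0.24 (limma adjusted p = 0.181), the transducer Stat5b at -0.35 and the interleukin 15 receptor chain Il15ra at -0.32. Il15ra had another tested probe set, at 0.15. The median for interleukin 2 and 15 signalling was -0.29 within the first control set, -0.05 within the second and -0.13 without wild type 4. That of the other cytotoxic effectors was -0.21, -0.08 and -0.01 in the same order, and that of the lineage transcription factors 0.36, -0.05 and 0.24.

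Of 16 chemokines and chemokine receptors, 5 were tested and 0 called (median -0.17). Cxcr4, which retains blood progenitors and lymphocytes in their niches, had signals of 222.5, 448.6, 482.3 and 518.1 in the knockout livers, against 729.6, 599.9, 625.2 and 758.3 in the wild-type livers. Its groups did not overlap with the knockout lower (difference -0.74 ± 0.24, log2, SE; limma adjusted p = 0.203), and 4.85% of all tested probe sets did so. Cxcl16 was at 0.25 and Cxcl10 at -0.53. Of 16 genes for ligands of natural killer receptors, 5 were tested and 0 called (median -0.05). These included Clec2d, a ligand of the Klrb1 receptors, at -0.54 ± 0.24 (limma adjusted p = 0.333), the lipid-presenting molecule Cd1d1 at 0.28 and the class I molecule H2-K1 at -0.12. The median of the chemokine list was 0.09 within the first control set, -0.21 within the second and -0.21 without wild type 4, and that of the ligand list was 0.26, -0.29 and 0.10.

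Interferon gamma is a product of activated natural killer and T cells. A list of 23 genes, called interferon gamma inducible here, included Ifngr1 and Ifngr2, which encode the interferon gamma receptor. Of the 23, 19 were tested. At a limma adjusted p under 0.05, 2 were lower, where 0.152% of all tested probe sets were, and 0 higher, where 0.147% were. Differences were below 0 for 18 of the 19, against 54.2% of all tested probe sets. Their median was -0.78, and it was -0.65 within the first control set, -0.88 within the second and -0.78 without wild type 4. The groups of 9 of the 19 did not overlap with the knockout lower, where 4.85% of all tested probe sets did so. The list was chosen with earlier results of these data known. Psmb9 and Gbp6 entered the test with 4 wild-type arrays and 2 knockout arrays at the minimum, and Tap2 with 3 wild-type arrays and 1 knockout array. The share thus describes the list and does not test it. Psmb10, a subunit of the immunoproteasome that prepares peptides for class I molecules, had signals of 603.4, 424.0, 383.7 and 549.1 in the knockout livers, against 867.2, 1412.1, 1395.1 and 1027.9 in the wild-type livers (difference -1.23 ± 0.20, log2, SE; limma adjusted p = 0.0466). Gbp7, an interferon-induced GTPase, had 441.2, 527.7, 274.0 and 462.4 in the knockout livers, against 965.0, 1011.5, 1146.3 and 835.4 in the wild-type livers (difference -1.21 ± 0.20, log2, SE; limma adjusted p = 0.0466). On both probe sets, every knockout array lay below every wild-type array. A second tested probe set of Gbp7 was at -0.82 and was not called.

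Both calls were kept in some settings and lost in others. With the control set as a block, the limma adjusted p was 0.0389 for Psmb10 and 0.0317 for Gbp7. Without wild type 4, the limma adjusted p was 0.0904 for Psmb10 and 0.0861 for Gbp7, and it was 0.169 for both without wild type 2 and 0.157 for both without wild type 3. Without knockout 1, 2 or 3 it was 0.0546, 0.137 and 0.146 for Psmb10 and 0.0772, 0.0833 and 0.105 for Gbp7, and without wild type 1 it was 0.0361 for Psmb10 and 0.0700 for Gbp7. Without knockout 4 both were at 0.0322. With the replicate number as a block, they were at 0.0885 for Psmb10 and 0.0790 for Gbp7. The interferon gamma transcript itself, Ifng, lay between 15.2 and 67.9 in the knockout livers and between 9.9 and 52.2 in the wild-type livers, below the signal minimum.

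**Figure D3:**
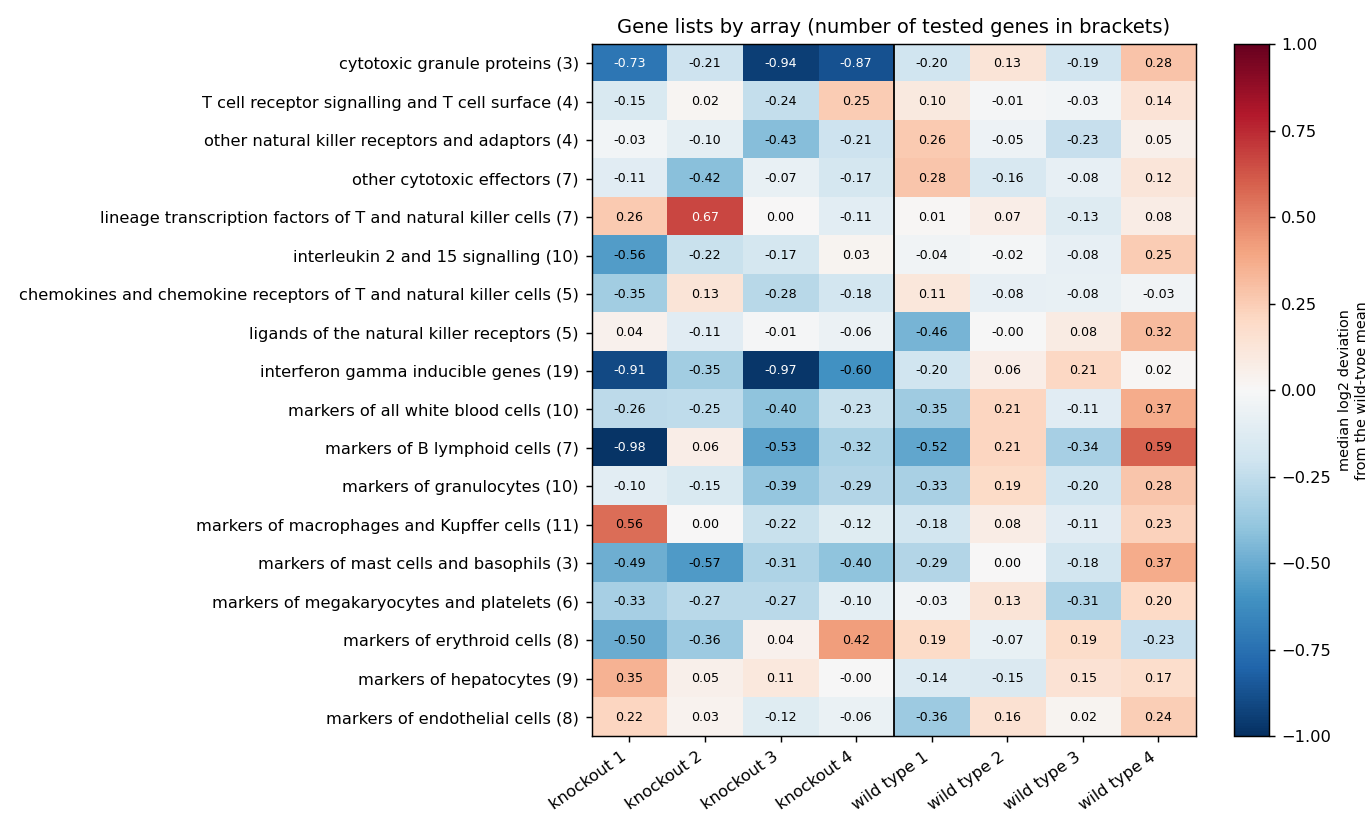
Median log2 deviation from the wild-type mean over the tested genes of each list (rows, with the number of genes) on each array (columns, knockout left of the line, wild type right); blue is lower and red higher. Interferon gamma inducible genes lie between -0.97 and -0.35 on the knockout arrays and -0.20 and 0.21 on the wild-type arrays, and the 3 tested granule protein genes between -0.94 and -0.21 on the knockout arrays and -0.20 and 0.28 on the wild-type arrays. The granule protein median falls on different genes on different arrays. Taken by gene, Gzma did not overlap between the groups, while Gzmb and Nkg7 did.

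Markers of other blood cells were read beside these genes. Of 10 markers of all white blood cells, 10 were tested and 0 called. All 10 had differences below 0, where 54.2% of all tested probe sets did. The median was -0.27, at -0.15 and -0.41 within the first and the second control set. Without wild type 4 it was -0.13, and 8 of 10 markers were below 0. Their summed signal was 14856 to 17553 in the knockout livers and 14904 to 25643 in the wild-type livers, so the ranges overlapped through wild type 1. For 7 tested markers of B lymphoid cells the median was -0.49, or -0.29 without wild type 4. The sums over the 9 markers on the array, untested ones included, were 1374.8 to 3334.1 in the knockout livers and 2428.9 to 4576.8 in the wild-type livers. For 10 granulocyte markers the median was -0.22, at -0.09 within the first control set and -0.36 within the second, with sums of 68557 to 94293 in the knockout livers and 80255 to 100470 in the wild-type livers.

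Macrophage and Kupffer cell markers, 11 of them, had a median of 0.06, at 0.39 within the first control set, -0.17 within the second and 0.19 without wild type 4, with sums of 26421 to 44952 in the knockout livers and 25106 to 36988 in the wild-type livers. For 3 tested mast cell and basophil markers it was -0.44, at -0.60 within the first control set and -0.13 within the second. Of these, Mcpt8 reached the minimum on 4 wild-type arrays and 0 knockout arrays, so it entered through the group in which it was higher. Cpa3, at -0.44, reached it on 4 wild-type arrays and 2 knockout arrays. Kit, the other tested marker, was at 0.38, and another tested probe set of Kit was at 0.54. Untested markers of this list were at 1.40 for Hdc, 0.54 for Mcpt4, 0.39 for Tpsb2 and -0.10 for Ms4a2. The sums over the 7 on the array, untested ones included, were 1396.9 to 1937.0 in the knockout livers and 1243.2 to 1779.6 in the wild-type livers. For 6 megakaryocyte and platelet markers the median was -0.23, or -0.15 without wild type 4 (sums of 11572 to 14435 in the knockout livers and 12458 to 17670 in the wild-type livers). For 8 erythroid markers the median was -0.11, at -0.48 within the first control set and 0.24 within the second, and -0.21 without wild type 4 (sums of 38891 to 60595 in the knockout livers and 42561 to 56408 in the wild-type livers). The 9 hepatocyte markers were all above 0 (median 0.11), with medians of 0.37 within the first control set, -0.08 within the second and 0.18 without wild type 4. The 8 endothelial markers had a median of 0.05, at 0.21 within the first control set, -0.11 within the second and 0.13 without wild type 4, with sums of 8555.4 to 14168 in the knockout livers and 8333.2 to 11262 in the wild-type livers. In none of these lists was a gene called, and their part in the values of the T and natural killer genes was not tested.

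To set the T and natural killer genes against white cells as a whole, each tested probe set was taken relative to the mean log2 signal of the 10 white blood cell markers on the same array, with the wild-type mean set to 0. Gzma then lay at -1.35, -0.33, -0.80 and -0.97 in the knockout livers, against 0.24, -0.28, -0.14 and 0.18 in the wild-type livers. The groups still did not overlap, with knockout 2 just below wild type 2. How many of all probe sets would not overlap on this scale was not computed. The markers are shared by all white blood cells, so the scale does not adjust for the number of T or natural killer cells. The mean was -0.86 ± 0.42 in the knockout and 0.00 ± 0.25 in the wild type (SD, n = 4 each). Gzmb lay at -0.47, 0.00, -0.50 and -0.62 in the knockout livers, against 0.01, -0.08, 0.15 and -0.07 in the wild-type livers, with 3 knockout arrays below all wild-type arrays and knockout 2 among them. The knockout means were 0.07 for Nkg7, -0.11 for Klrk1, 0.05 for Ccl5 and 0.07 for Il2rb, each within 1 SD of the wild type.

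**Figure D4:**
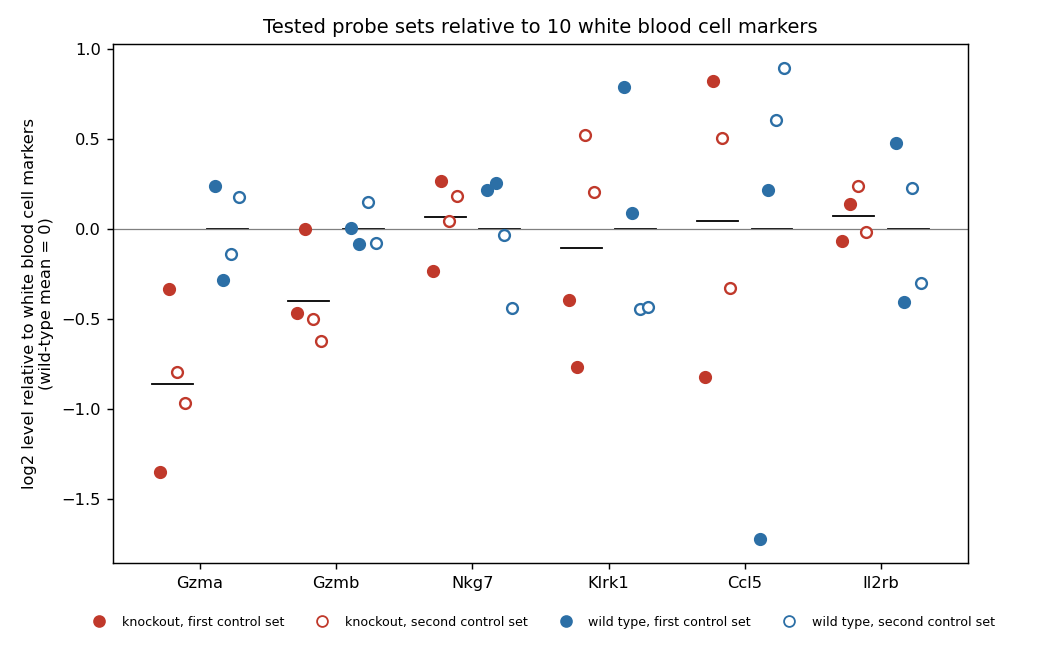
Log2 level of the 6 tested probe sets relative to the mean of 10 white blood cell markers on the same array, with the wild-type mean of each at 0; knockout left and wild type right, filled points for replicates 1 and 2, open points for replicates 3 and 4, lines for means. The 4 Gzma points of the knockout lie between -1.35 and -0.33, below the wild-type points, and the groups overlap for the other 5 genes. The share of all probe sets without overlap on this scale was not computed.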

How the data were processed

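RNA from 4 knockout and 4 wild-type livers was read on 1 array each, and the groups were taken from the sample titles. Per the labels, the authors made the deposited signal intensity values with Affymetrix GCOS 1.2 at default settings, scaled on all probe sets with 500 as the target. The values were found to be linear, and the mean of each array, with 2% trimmed at either end, was 500.0. The genome build behind the platform annotation is not given in the sources used here.

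Probe sets were named from the platform annotation joined to a RefSeq gene table: of 45101, 64 were controls, 34945 had 1 gene, 932 several and 9160 none. A two-sided test on log2(signal + 16) was run in R 4.3.3 with limma 3.58.1 (lmFit, then eBayes with a trend) for the 20395 that reached 200 on 4 or more arrays, with Benjamini-Hochberg adjustment over all of them. Dim probe sets came from the same fit over all 45037. The test was checked on simulated data with independent noise and no control sets, which does not measure how stable the calls are here. The members and lists were chosen with earlier results of these data known. All probe sets of the 10 genes are named. In each list the genes named are those that passed the test, and otherwise up to 3 with the smallest p. The 6 most alike had the highest Pearson r. Each array is 1 liver, and 4 against 4 arrays limit the precision. The alternatives were pseudocounts of 1 and 64, a minimum of 100 or none, quantile normalization, no trend, blocks, each control set alone, a 3′ to 5′ ratio covariate and each array left out.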

Additional observations from a re-analysis of the deposited data

Results flagged for a closer look

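In 2 of the 22 groups of 4 arrays formed by the 11 probe sets, 1 array lay far from the other 3 by Dixon's test, and both were the array of wild type 2. For Nkg7 it was the highest wild-type array at 512.5, with the next at 344.6. For Il2rb (1417546_at) it was the lowest wild-type array at 189.4, with the next at 227.6. Chance alone flags about 1 in 20 groups.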

How the results depend on the processing

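No T or natural killer probe set was called by limma under any of the 20 alternatives, of which 18 or 19 gave a value for the dim ones. Gzma stayed below 0 throughout, from -1.36 to -0.95 (log2), with a limma adjusted p of 0.0637 to 0.241, and Gzmb from -1.05 to -0.33, with 0.143 to 0.660. The median of the 11 probe sets lay between -0.44 and -0.18. The count of all probe sets called moved much more: 30 higher and 31 lower in the knockout became 8 and 13 with no minimum, 8 and 14 with a minimum of 100, 4 and 14 with no trend, 103 and 81 with the control set as a block, 24 and 6 within the first control set, 0 and 2 within the second, and, in an alternative chosen after seeing the data, 103 and 51 with that block and without wild type 4. The cause of these moves was not tested, and each control set alone also holds fewer arrays. Leaving out 1 array gave 0 to 211 higher and 2 to 123 lower: 211 and 123 without knockout 4, 7 and 15 without knockout 1, 4 and 2 without wild type 4, and 0 and 2 without knockout 2, knockout 3, wild type 2 or wild type 3. With the replicate number as a block, 26 were higher and 30 lower, and 0 of the 6 tested T and natural killer probe sets were called. Same-numbered arrays deviated together with correlations of 0.22, 0.40, 0.34 and 0.05, and knockouts 1, 2 and 3 correlated best with their own number while knockout 4 did not. Pair 4 fell below 0.1, so the numbers were not taken as a pairing. Same-numbered arrays lie in the same control set.

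Some differences that passed no test changed sign. Ccl5 was at 0.62 within the first control set, 0.029 with the 3′ to 5′ ratio as a covariate, 0.090 with the block and without wild type 4, and -0.96 to 0.17 with 1 array left out. Klrk1 was at 0.36 within the second set. Prf1 (1451862_a_at) was at 0.053 within the second set, 0.043 with the block and without wild type 4, and -0.29 to 0.11 with 1 array left out. Prf1 (1450335_at) was at -0.026, -0.0085 and -0.020 to 0.15 under the same 3. Cd3g ranged from -0.51 to 0.033 with 1 array left out. With no detection calls, signal over background limits the dim probe sets, and no level is known for them beyond their signal.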
